A study of Mus musculus with 12 samples.

Results

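The genes described are the 5 subunits of the transcription factor NF-κB (Nfkb1, Nfkb2, Rel, Rela and Relb) and 5 genes that restrain it or are induced by it (Nfkbia, Nfkbib, Nfkbie, Tnfaip3 and Birc3), in mouse haematopoietic stem cells (HSCs). They were taken by symbol from the count tables, where all 10 were found among 35976 genes. HSCs were sorted as cells without lineage markers that carry c-Kit and Sca-1, and 12 libraries of 3′ transcript ends were made from them. There were 6 groups of 2 libraries: cells of young mice (2 months) that were wild type (WT) or labelled knockout (KO) for Cd38, freshly isolated; cells of young WT and KO mice after 24 hours with cytokines outside the body, called stimulated; and freshly isolated cells of old WT and KO mice (24 months). The product of Cd38 is an NAD-consuming enzyme of the cell surface. The KO allele, and whether the 2 libraries of a group came from separate animals, are not given in the labels, so p-values measure only the spread between these libraries.

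NF-κB is a family of paired DNA-binding proteins held in the cytoplasm by inhibitor (IκB) proteins. Signals from receptors for TNF, interleukin-1 and microbial products activate a kinase complex that marks the inhibitor for destruction, and the pair then enters the nucleus. Several of its target genes encode its own inhibitors, which makes a feedback loop, and in HSCs inflammatory signals that use the pathway are known to push cells out of rest.

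Total counts were 1600155 to 1963635 in young fresh, 2692245 to 3249721 in stimulated and 3796591 to 5164720 in old fresh libraries, so depth differed between states. The correlation of log2 levels between the 2 libraries of a group was 0.704 to 0.746 in the 4 fresh groups and 0.954 and 0.959 in the stimulated groups. Kit was counted at 191 to 423 CPM (the count scaled to the TMM-adjusted size of its library) in the 12 libraries. Ly6a, which encodes Sca-1, was at 39.3 to 177 CPM. All 10 stem and progenitor markers listed were detected in some library of each state, though Slamf1 and Cd48 were not counted in every old library. Stimulated libraries had less Hlf than young fresh ones (334 to 530 against 787 to 984 CPM). They had more Cd48 (49 to 126 against 0.52 to 27.6 CPM) and Flt3 (46.4 to 240 against 7.53 to 24.6 CPM). Whether the cells shifted towards progenitors was not tested. Cd38 itself went against the labels in young fresh cells: 31.9 to 62.8 CPM in the libraries labelled KO and 17.6 to 24.6 CPM in WT. In old fresh cells it was 13.2 to 19.9 CPM in the libraries labelled KO and 41.4 to 74.4 CPM in WT, and in stimulated cells 2.32 to 3.59 and 0.998 to 8.58 CPM. A 3′ tag outside the deleted part would be counted in a knockout as well, but which part was deleted is not given. Whether the genotype labels are right was not tested, and every KO comparison is between libraries so labelled. WT replicate 1 of the young fresh cells stood apart with Xist, made from the inactive X chromosome, at 0 CPM and Y-linked genes at 200 CPM, where the other 11 libraries had 198 to 745 and at most 6.62 CPM. These are levels of male cells in that library and of female cells in the others, so the 2 young fresh WT libraries came from different animals. Marker genes of mature neutrophils, all 8 of them detected in young fresh cells, summed to 4980 to 9610 CPM there, 752 to 1470 CPM in stimulated and 406 to 3140 CPM in old cells. Monocyte and macrophage markers summed to 56.1 to 181, 265 to 349 and 54 to 142 CPM, with Csf1r and Cd14 at 0 in all fresh cells. In such bulk samples, fewer cells of a type cannot be told apart from less RNA per cell.

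The promoters of 8 of the 10 genes, in RefSeq's table for GRCm38.p6, were searched on both strands for NF-κB sites in 300 bases around each start, 11 windows in all. Nfkb1 and Relb had no entry there. The κB consensus, the DNA site of the family, matched in 5 genes (Nfkb2, Rel, Nfkbia, Nfkbie and Tnfaip3) and in 8.46% of all 32851 windows of that length. A broader form, GGG and CC with any 5 bases between them, includes the consensus and matched in 7 genes and 50.8% of windows. A narrower form, GGGA and TTCC with any 2 bases between them, matched in 2 genes (Nfkb2 and Nfkbia) and 1.47% of windows. Nfkbib had no match to any of the 3. A gene was counted if any of its windows matched (Nfkb2 had 3 windows), while the percentages are of single windows. The counts of genes and the percentages are therefore not on the same footing. The sequences below are shown because Nfkbia and Rela were the genes whose levels separated young fresh from stimulated cells, and Tnfaip3 and Nfkb2 because they were counted in all stimulated but in only 1 of 4 young fresh libraries. Each is 5′ to 3′ on its gene's strand, with matches to the κB consensus in capitals. Nfkbia's whole upstream stretch is given, and for Rela the part before its annotated gene start. For Tnfaip3 and Nfkb2 only 30 bases around a match are given, since the window lies within an annotated transcript or gene. The consensus search was added after the data were seen.
Nfkbia, chr12:55492648-55492897, minus strand: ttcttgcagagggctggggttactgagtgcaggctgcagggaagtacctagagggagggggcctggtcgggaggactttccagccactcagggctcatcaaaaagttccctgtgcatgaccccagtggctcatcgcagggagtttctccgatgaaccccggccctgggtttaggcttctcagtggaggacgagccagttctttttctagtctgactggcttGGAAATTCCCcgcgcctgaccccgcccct
Rela, chr19:5637291-5637441, plus strand: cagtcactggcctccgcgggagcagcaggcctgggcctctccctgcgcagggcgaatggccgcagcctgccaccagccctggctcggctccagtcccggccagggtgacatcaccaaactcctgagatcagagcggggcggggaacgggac
Tnfaip3, first match, chr10:19015516-19015545, minus strand: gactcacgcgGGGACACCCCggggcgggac
Tnfaip3, second match, chr10:19015411-19015440, minus strand: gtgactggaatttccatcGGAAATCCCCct
Nfkb2, start 1, chr19:46304689-46304718, plus strand: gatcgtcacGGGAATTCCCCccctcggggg
Nfkb2, start 3, chr19:46305695-46305724, plus strand: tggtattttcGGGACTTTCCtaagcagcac

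The match in Nfkbia lay 29 to 20 bases before the start, and its reverse strand reads GGGAATTTCC. The Tnfaip3 matches lay 125 to 116 and 12 to 3 bases before the start. For Nfkb2, 2 overlapping matches are shown 39 to 29 bases before start 1 and 1 match 225 to 216 bases before start 3. Another lay 11 to 2 bases before start 1 and is not shown. A match is a description of letters and does not show binding.

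**Figure D1:**
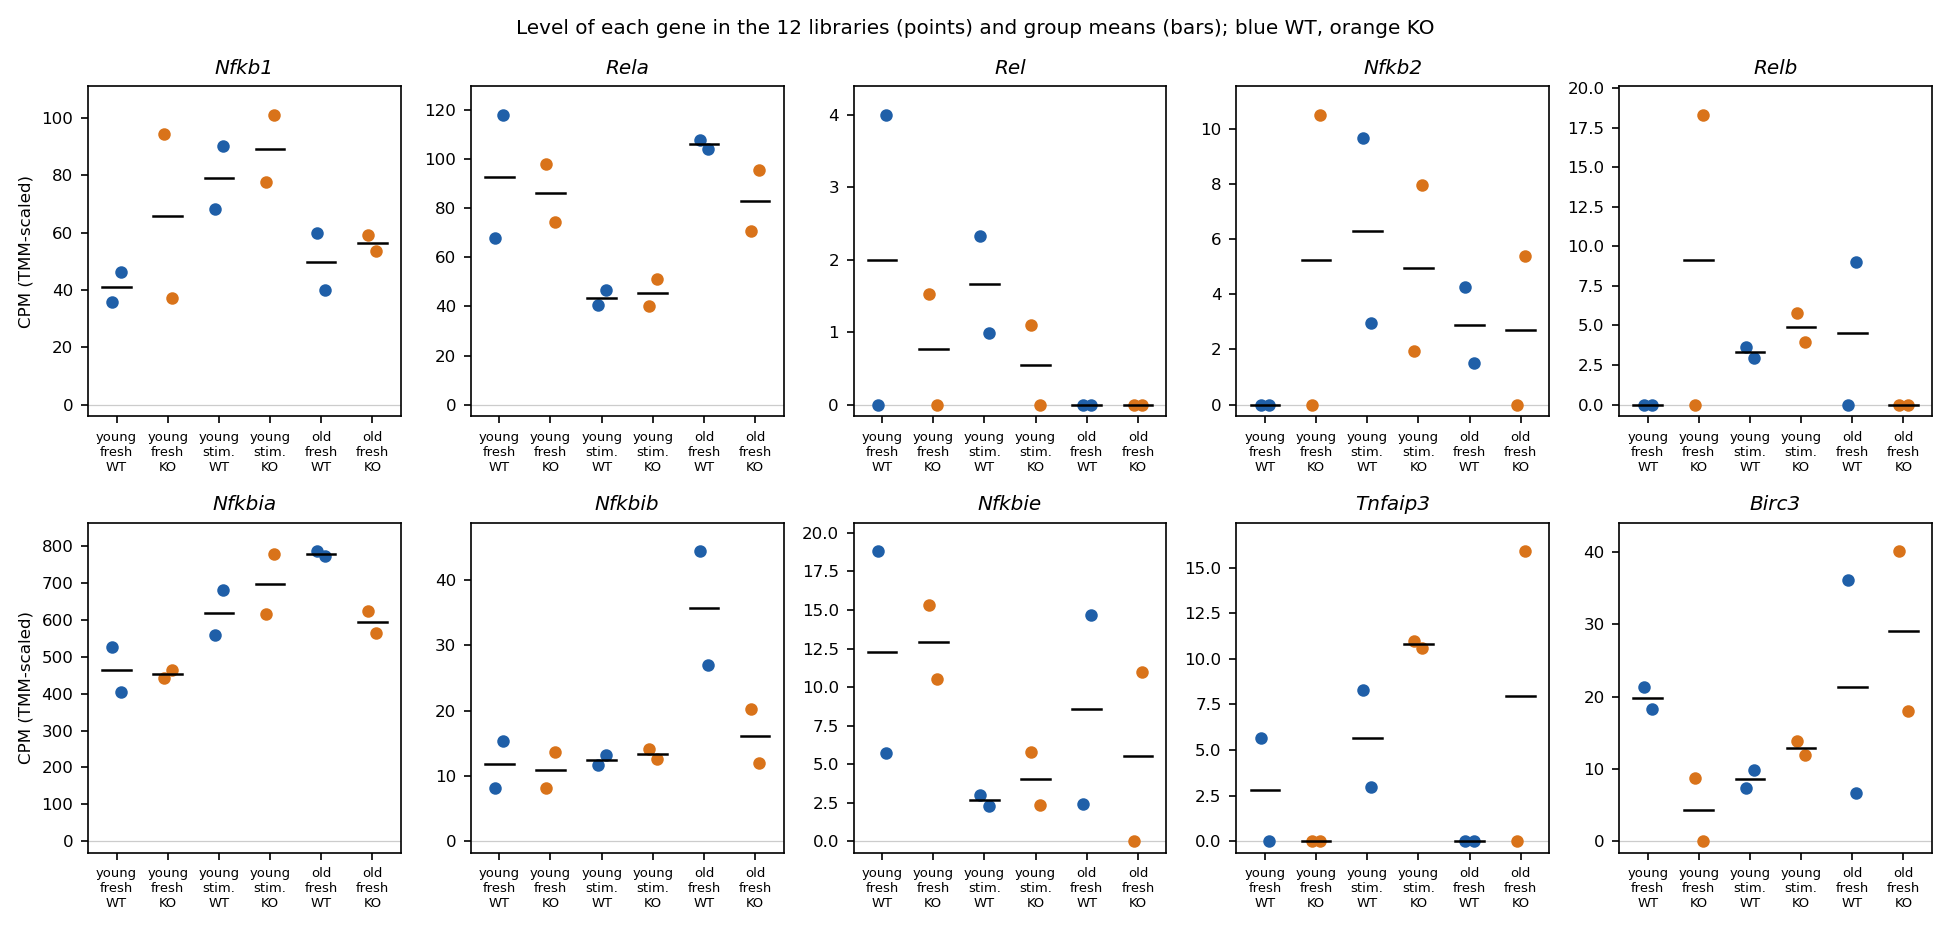
Level of each of the 10 genes in every library, in CPM scaled by TMM on the vertical axis of its own panel; points are libraries (blue WT, orange labelled KO), bars are the means of 2. Rela is lower in the 4 stimulated libraries (40.3 to 51 CPM) than in all 8 fresh ones, and Nfkb2, Relb and Tnfaip3 lie at 0 in most young fresh libraries.

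Nfkb1 (p105/p50), Rela (p65), Nfkbia and Nfkbib were counted in all 12 libraries, Nfkbie and Birc3 in 11, and the other 4 genes in 8 or fewer. Rel, the c-Rel subunit, had too few counts for a test, so 9 genes entered the fit of all 12 libraries (of 11548 genes tested) and 8 the fit of the 4 stimulated libraries alone (of 10494). No member passed the test, at an adjusted p under 0.05, in any of the 11 comparisons made, where between 0% and 5% of all genes did. In the fit of all 12 libraries most simulated log2 changes of 1 were missed (shares given with the methods). A member that did not pass is therefore not shown to be unchanged. In mm10 the subunit genes lie at chr3:135584655-135691969 (Nfkb1), chr19:5637442-5648134 (Rela), chr11:23736847-23770969 (Rel), chr19:46300994-46312400 (Nfkb2) and chr7:19606217-19629438 (Relb). The others lie at chr12:55489409-55492647 (Nfkbia), chr7:28758251-28766644 (Nfkbib), chr17:45555700-45563169 (Nfkbie), chr10:19000910-19015410 (Tnfaip3) and chr9:7847468-7873205 (Birc3).

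Nfkb1 and Rela encode the subunits of the main pair that carries the response to TNF and interleukin-1. Nfkb1 was 35.7 and 46.3 CPM in young fresh WT, 94.4 and 37.2 CPM in young fresh KO, 68.2 and 90.1 CPM in stimulated WT, 77.5 and 101 CPM in stimulated KO, and 59.8, 39.9, 59.1 and 53.6 CPM in the 2 old WT and 2 old KO libraries. The young fresh KO replicate 3 overlapped the stimulated cells, and apart from it the fresh libraries lay below them. Rela was 67.7 and 118 CPM in young fresh WT, 98 and 74.3 CPM in KO, 40.6 and 46.6 CPM in stimulated WT, 40.3 and 51 CPM in stimulated KO, and 108 and 104 CPM in old WT and 70.7 and 95.4 CPM in old KO. The stimulated libraries were all below the fresh ones. The share of all genes placed this way against young and old fresh libraries together was not determined. WT and KO overlapped in young fresh and in stimulated cells, and in old cells both WT libraries were above both KO ones.

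Averaged over both genotypes, Rela was 44.6 ± 5.15 CPM (SD, n = 4) in stimulated and 89.4 ± 22.9 CPM (n = 4) in young fresh cells. The log2 difference was -1.0 ± 0.35 (SE; 95% interval -1.74 to -0.26), with an adjusted p of 0.164 in edgeR's quasi-likelihood test, where 2.81% of 11548 genes passed. It was the only member whose stimulated libraries all lay below all young fresh ones, as did 5.16% of genes tested. DESeq2 gave it an adjusted p of 0.0478, and the 5 other settings tried did not pass, with values up to 0.277. Leaving out single libraries gave differences of -1.17 to -0.76 and edgeR adjusted p-values of 0.111 to 0.581. Without the young fresh WT replicate 1 it was -1.17 (edgeR adjusted p = 0.12). Nfkb1 differed the other way, by 0.69 ± 0.41 (95% interval -0.19 to 1.58; edgeR adjusted p = 0.414), from 53.4 ± 27.7 CPM (SD, n = 4) to 84.2 ± 14.4 CPM (n = 4).

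Within each library, the ratio of Nfkb1 to Rela read counts was 0.393 to 0.964 in young fresh, 0.386 to 0.836 in old fresh and 1.68 to 1.98 in stimulated cells. A ratio within a library does not depend on library size, though it does on how much of each transcript's end is captured. All 4 stimulated ratios were above all 8 fresh ones, and Nfkbia against Rela behaved the same way, with 3.44 to 7.76, 5.91 to 8.85 and 13.7 to 15.3. The ratio of Nfkbia to Nfkb1 did not separate them: it was 4.68 to 19.4 in the fresh and 7.57 to 8.18 in the stimulated libraries. These ratios combine genes whose separation is given above, so they are a description with no test.

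**Figure D2:**
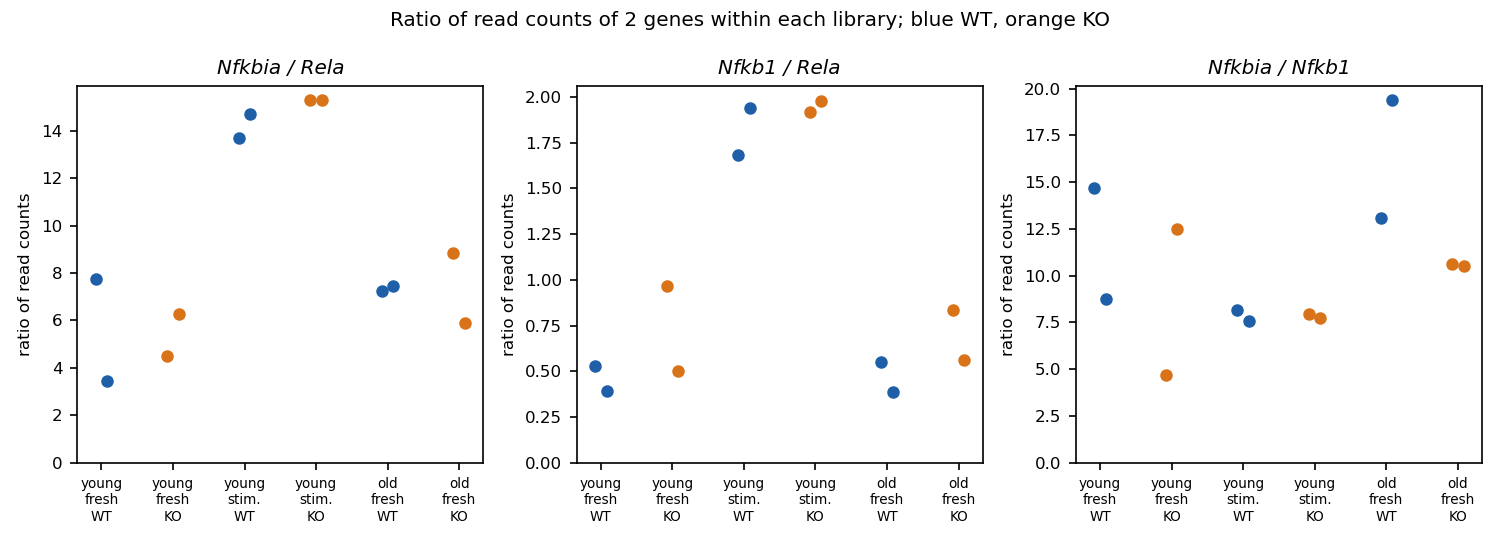
Ratio of the read counts of 2 genes in each library, on a linear axis from 0, by group (blue WT, orange labelled KO). The 4 stimulated libraries lie at 13.7 to 15.3 for Nfkbia over Rela and at 1.68 to 1.98 for Nfkb1 over Rela, above every fresh library, while Nfkbia over Nfkb1 overlaps.

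Rel, Nfkb2 and Relb complete the family, Nfkb2 and Relb forming the pair of the slower, non-canonical pathway. Rel had 10 counts over the 4 young fresh libraries, in 2 of them, 14 over the stimulated ones, in 3 of them, and 0 over the 4 old libraries. Of the young fresh counts, 7 came from WT replicate 2 and 3 from KO replicate 3, so most came from 1 library and no fold is given. Of 1040 genes that, like Rel, were too low for the test but had a count in young fresh cells, 70% were at 0 in all 4 old libraries.

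Nfkb2 was 0 CPM in 3 of 4 young fresh libraries and 10.5 CPM in the other, 9.65, 2.97, 1.93 and 7.95 CPM in the stimulated libraries, and 4.25, 1.5, 0 and 5.38 CPM in the old ones. Relb was 0 in 3 young fresh libraries and 18.3 CPM in the other, the young fresh KO replicate 4 in both cases, then 3.66, 2.97, 5.8 and 3.97 CPM in stimulated and 0, 9.01, 0 and 0 CPM in old cells. Together with Tnfaip3 these genes were counted in all 4 stimulated libraries but in at most 1 of 4 young fresh ones, as were 9.85% of genes tested. Over all genes, 13163 to 13450 had a count in each stimulated library, 9116 to 9993 in each young fresh and 9548 to 10231 in each old fresh one, although the old libraries had the largest totals. The part of this difference in the detection of the members was not tested. Neither gene passed the test between stimulated and young fresh cells (edgeR adjusted p = 0.424 for Nfkb2 and 0.556 for Relb). Nfkb2 overlaps Psd on the opposite strand, and since the strand setting of the counting is not given in the sources used here, reads of the pair may not be told apart.

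Nfkbia encodes IκBα, a rapidly induced target and inhibitor of the factor. It was 526 and 405 CPM in young fresh WT, 442 and 465 CPM in young fresh KO, 558 and 682 CPM in stimulated WT, 616 and 779 CPM in stimulated KO, 786 and 774 CPM in old WT, and 625 and 564 CPM in old KO. In order of their means, old WT (780 CPM), stimulated KO (698), stimulated WT (620) and old KO (595) stood above young fresh WT (465) and KO (454). Neighbours in that order overlapped except at one place: both old KO libraries lay above all 4 young fresh ones.

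Both comparisons for Nfkbia share the 4 young fresh libraries. Stimulated minus young fresh was 0.52 ± 0.16 on the log2 scale (SE; 95% interval 0.18 to 0.86; edgeR adjusted p = 0.114), with means of 659 ± 94.9 against 459 ± 50.6 CPM (SD, n = 4 each). All 4 stimulated libraries lay above all 4 young ones, as they did for 14.6% of genes tested. Old minus young was 0.57 ± 0.16 (95% interval 0.23 to 0.91; edgeR adjusted p = 0.0542, where 5% of genes passed), with 687 ± 110 CPM in the old libraries, again with no overlap, as in 4.51% of genes. Over 6 other settings the age difference was 0.54 to 0.57 and its adjusted p 0.0132 to 0.298. It passed with DESeq2 (0.0132) and with edgeR without a filter on low counts (0.0448), and not with voom (0.298) or in the libraries of the comparison alone (0.205). Leaving out single libraries gave log2 differences of 0.47 to 0.67 and adjusted p-values of 0.05 to 0.145 in edgeR; without the young fresh WT replicate 1 it was 0.67 (adjusted p = 0.05, not under the threshold). For stimulated minus young fresh cells, leaving out single libraries gave 0.44 to 0.63 with edgeR adjusted p-values of 0.0867 to 0.515, the first of these without the same library.

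By genotype, old minus young was 0.75 ± 0.22 in WT (edgeR adjusted p = 0.129, where 1.78% of genes passed; DESeq2 0.0327) and 0.39 ± 0.22 in KO (adjusted p = 0.374, where 1.82% did). The difference of the KO-minus-WT changes between ages was -0.35 ± 0.32 (edgeR adjusted p = 0.74), so the 2 genotypes were not shown to differ. Beside these results, the summed neutrophil markers given above were lower in all old and all stimulated libraries than in any young fresh one. T and NK cell markers summed to 14.3 to 34.7 CPM in young fresh, 113 to 231 in stimulated and 19.4 to 123 in old libraries (2, 5 and 2 of 8 genes detected, Cd3e, Cd4 and Cd8a at 0 throughout). Nkg7 alone was 227, 145, 141 and 93.7 CPM in the stimulated libraries, and Klrb1c 15.7, 105, 41 and 73.9 CPM in the old ones. B cell markers summed to 0.627 to 21.9, 22.1 to 200 and 0.266 to 77 CPM (4, 6 and 4 of 8 detected, Ms4a1 at 0 throughout). Megakaryocyte and platelet markers, all 8 detected, summed to 288 to 681, 176 to 585 and 370 to 2410 CPM, with Pf4 the largest part in every library. The part of these lists, and of the neutrophil and monocyte lists, in the results was not tested.

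Nfkbib and Nfkbie encode IκBβ and IκBε, related inhibitor proteins. Nfkbib was 8.15, 15.4, 8.17 and 13.6 CPM in the young fresh libraries, 11.6 to 14.1 CPM in the stimulated ones, and 44.4 and 27 CPM in old WT and 20.2 and 12 CPM in old KO. The old libraries reached highest in WT, and old KO overlapped the young. Old minus young was 1.08 ± 0.90 (95% interval -0.85 to 3.01; edgeR adjusted p = 0.554). Nfkbib overlaps Sirt2 on the opposite strand, which limits the count as for Nfkb2. Nfkbie was 18.8, 5.71, 15.3 and 10.5 CPM in young fresh cells and 2.99, 2.31, 5.8 and 2.32 CPM in stimulated ones; it was 2.39, 14.7, 0 and 11 CPM in old cells. Only one stimulated value, 5.8 CPM, reached the lowest young one, and the log2 difference of -1.92 ± 1.52 did not pass (edgeR adjusted p = 0.549).

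Tnfaip3 encodes A20, which edits ubiquitin chains to end the signal, and Birc3 encodes cIAP2, a ubiquitin ligase bound to TNF receptors. Tnfaip3 was 5.64, 0, 0 and 0 CPM in young fresh, 8.32, 2.97, 11 and 10.6 CPM in stimulated and 0, 0, 0 and 15.9 CPM in old cells. All stimulated libraries held it, and single fresh libraries did: the old value comes from KO replicate 4 alone. Stimulated cells averaged 8.23 ± 3.70 CPM against 1.41 ± 2.82 CPM in young fresh ones (SD, n = 4 each; edgeR adjusted p = 0.321). Birc3 was 21.3, 18.3, 8.68 and 0 CPM in young fresh, 7.32, 9.9, 13.8 and 11.9 CPM in stimulated and 36.1, 6.6, 40.1 and 18 CPM in old cells, with overlap in both comparisons (edgeR adjusted p = 0.966 and 0.538).

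**Figure D3:**
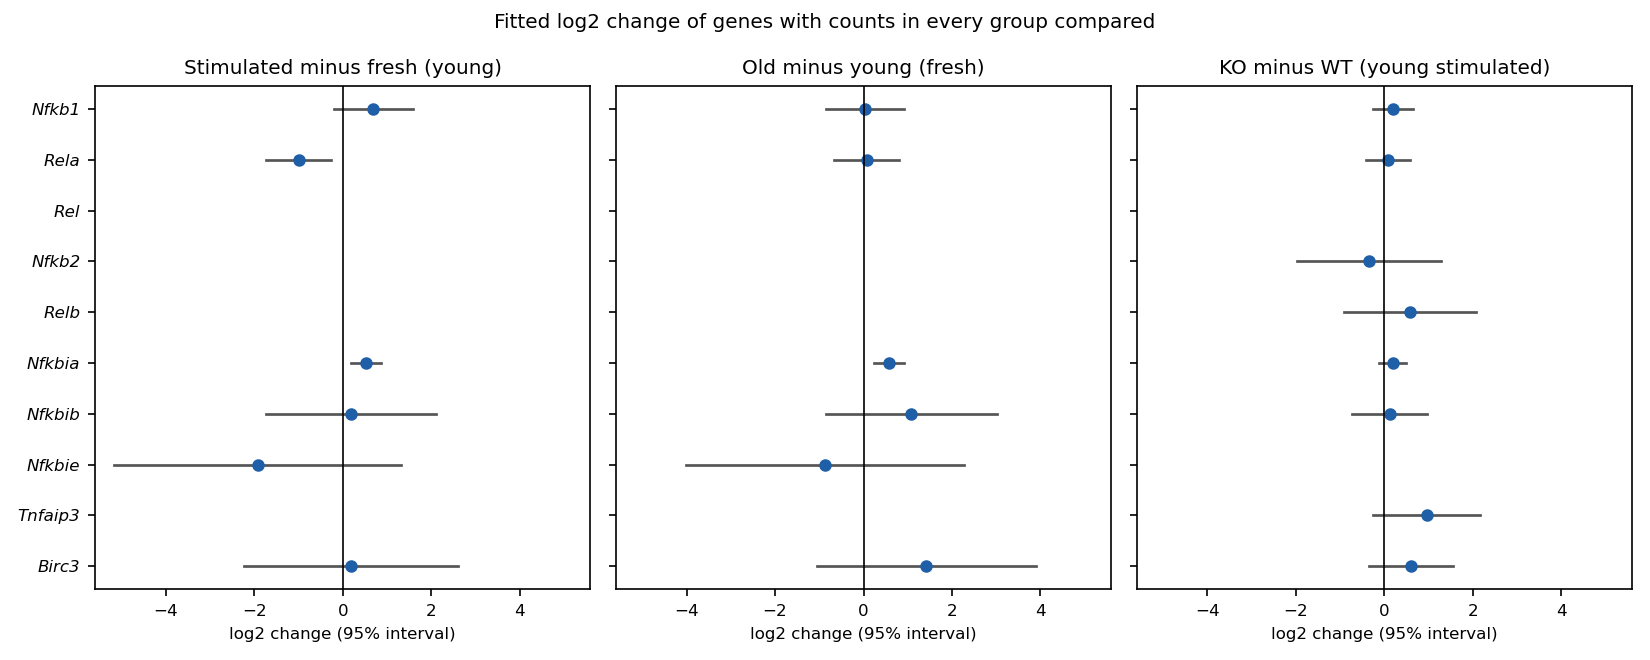
Fitted log2 difference with its 95% interval for members that have counts in every group compared: stimulated minus fresh and old minus young (genotypes pooled), and labelled KO minus WT in stimulated cells. Only Rela (-1.0) and Nfkbia (0.52 and 0.57) have intervals away from 0 before adjustment for the genes tested.

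Stimulation and age can also be read over the whole set. Of the 9 members tested, 7 had a positive fitted log2 difference in stimulated minus young fresh cells, with a median of 0.52 against 0.27 over all 11548 genes. By the means of 4 libraries in CPM only 5 were higher, since Relb and Birc3 had a positive fitted value and a lower mean. In old minus young cells 7 fitted values were positive, with a median of 0.57 against 0.05, and 6 means were higher, since Nfkb1, with a fitted value of 0.03, had means of 53.1 CPM in old and 53.4 CPM in young cells. In both comparisons the median of the members is the value of Nfkbia. Nfkb2, Relb and Tnfaip3 each had a group at 0 counts, so their fitted values have no SE. Members were chosen knowing earlier results of these data, and several are close to 0 counts. Both comparisons use the same young fresh libraries, so the counts of members describe these libraries and have no test. Within WT, where 0.797% of genes passed and none was a member, the stimulated libraries lay above both young fresh ones for Nfkb1, Nfkb2, Relb and Nfkbia, as for 34.1% of genes, and below them for Rela, Nfkbie and Birc3, as for 19%. Within KO, where 0.649% passed, they lay above for Nfkbia, Tnfaip3 and Birc3 (36.3% of genes) and below for Rela and Nfkbie (17%). Nfkbia thus lay above in both genotypes, as for 17.3% of genes, and Rela and Nfkbie below in both, as for 6.71%. Birc3 was separated in opposite ways, as were 6.03% of genes, a difference of 2.75 ± 2.32 that did not pass (edgeR adjusted p = 0.976). With age, Nfkb2, Nfkbia and Nfkbib lay above in WT (18.9% of genes), Nfkbia and Birc3 in KO (20.1%), and no member lay below in either.

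In stimulated cells, labelled KO minus WT was positive for 7 of the 8 members tested, with a median of 0.19 against 0 for all 10494 genes, and 1.23% of those genes passed the test. Tnfaip3 was 8.32 and 2.97 CPM in WT and 11 and 10.6 CPM in KO, a log2 difference of 0.96 ± 0.57 (95% interval -0.26 to 2.17; edgeR adjusted p = 0.593). Birc3 was 7.32 and 9.9 CPM against 13.8 and 11.9 CPM, a difference of 0.60 ± 0.45 (95% interval -0.35 to 1.55; adjusted p = 0.7 in edgeR). Relb was 3.66 and 2.97 against 5.8 and 3.97 CPM (0.58 ± 0.70; edgeR adjusted p = 0.835). In these 3 genes the KO libraries lay above both WT ones, as in 19.5% of genes tested. No member had both KO libraries below both WT ones, as 22.6% of genes did. Nfkbia (0.19 ± 0.14), Nfkb1 (0.19 ± 0.21), Rela (0.09 ± 0.24) and Nfkbib (0.13 ± 0.40) had intervals that held 0, as did Nfkb2 (-0.35 ± 0.77). In fresh cells no member passed either, where 0.026% of genes did in young and 0.0433% in old.

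The old WT libraries lay above the old KO ones for Rela, Nfkbia and Nfkbib, as in 15.8% of genes, with KO minus WT of -0.35 ± 0.48, -0.39 ± 0.22 and -1.15 ± 1.27 (edgeR adjusted p = 0.903, 0.516 and 0.846). In young fresh cells Birc3 alone lay lower in both KO libraries, as did 16.6% of genes. The change in the KO-minus-WT difference between fresh and stimulated cells passed the edgeR test for 0% of genes, 577 having an unadjusted p under 0.05 and 32 passing in DESeq2. The change between ages passed for 0.0346%, and no member was among them.

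Genes around the pathway were taken from 4 lists: receptors and adaptors (22 of 25 tested in the fit of all libraries), kinases (11 of 12), other inhibitors and ubiquitin editors (20 of 20) and target genes (16 of 30). In stimulated against young fresh cells 1 of these 69 genes passed, Tnfrsf1a, a TNF receptor, which fell, beside 2.81% of all genes. None passed in old against young cells, where 5% of all genes did, or in KO against WT stimulated cells, where 1.23% did. Tnfrsf1a was 275, 231, 224 and 124 CPM in young fresh and 102, 80.2, 90.5 and 108 CPM in stimulated cells, with no overlap, as in 5.16% of genes, a log2 difference of -1.14 ± 0.26 (edgeR adjusted p = 0.0295). It passed under all 6 other settings tried, with adjusted p-values of 0.00167 to 0.0387. With single libraries left out the difference was -1.31 to -0.88, but the call was lost for 7 of the 8 libraries, with adjusted p-values of 0.0607 to 0.211 in edgeR; it was kept without young fresh KO replicate 4 (0.012). Old cells had 83.2, 107, 131 and 134 CPM (old minus young -0.90; edgeR adjusted p = 0.0649; DESeq2 0.0181).

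The genes with the smallest p-values in the other lists did not pass in the fits reported, and 7 of them did under some other setting or with a library left out. Tab2, which links the receptors to the kinases, was 199 ± 26.4 CPM in stimulated and 123 ± 51.7 CPM in young fresh cells (n = 4 each; edgeR adjusted p = 0.136), and it passed without young fresh KO replicate 3 (edgeR adjusted p = 0.0473). Nfkbiz, an inhibitor-like protein that acts in the nucleus, was 0 in all 4 young fresh libraries and 5.32, 3.3, 6.35 and 9.94 CPM in the stimulated ones (edgeR adjusted p = 0.169; voom 0.0343). Vcam1, an adhesion molecule, was 81.6 ± 24.4 against 38.4 ± 21.3 CPM (edgeR adjusted p = 0.179). In the age comparison Rnf11, a partner of A20, was 4.99 ± 4.67 CPM in old and 48.7 ± 40.3 CPM in young cells (edgeR adjusted p = 0.0538), and Icam1, an adhesion molecule, was 0 in all old libraries and up to 19.9 CPM in young ones (adjusted p = 0.0593 in edgeR). Rnf11 passed in 3 of 6 other settings (smallest adjusted p 0.00115, with DESeq2) and without young fresh KO replicate 4 or old WT replicate 2 (edgeR adjusted p down to 0.0152), and Icam1 passed in 2 settings (smallest 0.00353, with DESeq2).

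In KO against WT stimulated cells, Il1r1, the interleukin-1 receptor, was 17.4 and 12.6 against 29.3 and 46.9 CPM (edgeR adjusted p = 0.0686), Tnip3, an A20 partner, 21.8 and 62.9 against 16.6 and 11.2 CPM (adjusted p = 0.088 in edgeR), and the chemokine Cxcl10 4.69 and 5.3 against 0 and 0.33 CPM (adjusted p = 0.0811 in edgeR). Without a filter on low counts, edgeR passed all 3 (adjusted p = 0.00288, 6.01e-05 and 0.0459), and in the fit of all 12 libraries each had an adjusted p of 1. Without stimulated WT replicate 1, Il1r1 (0.000938) and Tnip3 (0.00016) passed in edgeR, and Tnip3 also without stimulated KO replicate 3. Tbk1, a kinase, was 61.4 ± 9.17 against 48.3 ± 15.2 CPM (n = 2 each; edgeR adjusted p = 0.663). Of the 30 target genes, 11 were at 0 in all 8 fresh libraries, among them the cytokines Tnf and Il6 and the chemokine Ccl3. Of these, 8 were counted in a stimulated library, at 3.31 CPM or less, and 3 (Cxcl1, Csf2 and Lta) in none. Over all genes, stimulated libraries also counted more genes (13163 to 13450) than young fresh (9116 to 9993) or old fresh ones (9548 to 10231). The share of all genes with this pattern was not determined, so these counts are not a result about the targets. The cytokine Il1b had means in the other order and did not pass, at 8.61 ± 10.1 CPM in young fresh and 0.496 ± 0.632 CPM in stimulated cells (SD, n = 4 each; edgeR adjusted p = 0.345). These target genes were named after their values were seen.

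**Figure D4:**
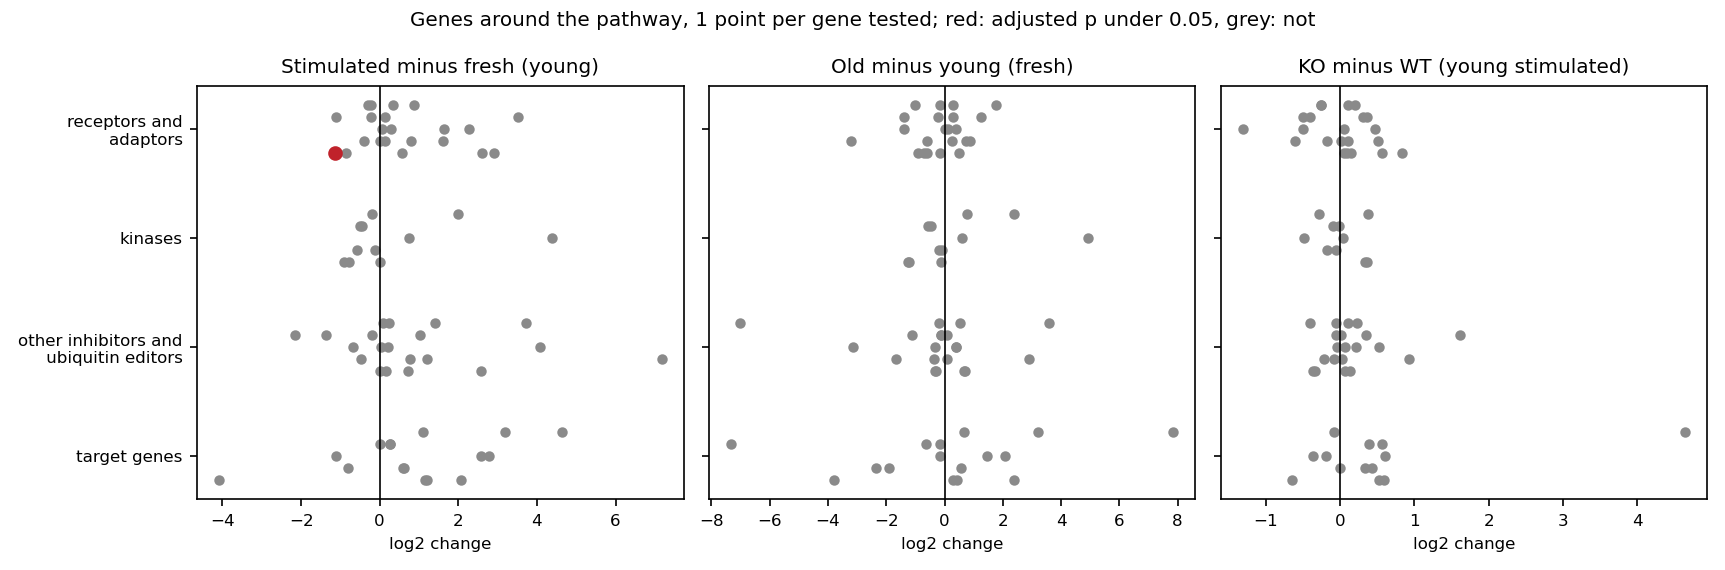
Log2 difference of every tested gene of the 4 lists around the pathway, 1 point a gene, in stimulated minus fresh young cells, old minus young fresh cells and labelled KO minus WT stimulated cells; vertical position within a list has no meaning. The single red point, Tnfrsf1a at -1.14, is the only gene whose adjusted p is under 0.05.

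The genes whose log2 levels followed each member most closely over the 12 libraries were found among genes whose mean was 5 CPM or more, 9298 for a member in that range and 9299 for Nfkb2, Relb and Tnfaip3, which were below it. For Nfkbia these were Rbbp4 (Pearson r 0.914; 460 to 1150 CPM) and Zfp944 (0.894). For Rela they were Naca (0.954; 536 to 1180 CPM) and Dlc1 (0.95), and for Nfkb1 Zfp777 (0.914) and Blmh (0.889). Tnfaip3 was most like Clec10a (0.942) and Crybg3 (0.933), Birc3 like Smap2 (0.955) and Tsr2 (0.935), and Nfkbib like Nudt4 (0.923) and Rmnd5a (0.908). Relb was nearest Them4 (0.966) and Ncf4 (0.929), Nfkb2 nearest Cry1 (0.912) and Oscp1 (0.895), and Nfkbie nearest Spopl (0.924) and Pck2 (0.907). The 12 points share library, depth and state.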

How the data were processed

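RNA was prepared on RNeasy Plus Micro columns and libraries with the QuantSeq 3′ FWD kit, per the labels' protocols. The authors deposited unnormalised read counts for each gene. The submitters' processing notes name HISAT2 2.2.1, HTSeq 0.9.1, DESeq2 1.34.0 and the build mm10. Strand setting, annotation and filters are not given in the sources used here.

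Counts were fitted in R 4.3.3 with edgeR 4.0.16 (quasi-likelihood test, TMM scaling, filterByExpr with a minimum count of 10 and total of 15), in 1 fit of 12 libraries for 10 contrasts, and on the 4 stimulated libraries for KO against WT there. Benjamini-Hochberg adjustment ran over all genes tested in a contrast, and a gene passed at an adjusted p under 0.05. The scripts were tested on simulated data, with changed genes drawn from those that entered the test. Of 67 genes given a log2 change of 1, 2.99% passed for stimulation and 7.46% for age. For KO against WT, 62.7% passed in stimulated and 5.97% in young fresh cells. At a log2 change of 3 these shares were 81.8%, 83.3%, 97% and 43.9%. Intervals come from the fit. Alternatives were RLE scaling, no filter, DESeq2 1.42.0, limma 3.58.1 voom with a weight per group, a replicate block, the libraries of a comparison alone (for stimulated KO against WT, all 12) and each library left out. The search for the κB consensus and the removal of each library for Tnfrsf1a were added after the data were seen.

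All 10 members were named, and from each pathway list the genes that passed (up to 4) or else the one with the smallest p. Genes most alike were the 2 with the highest Pearson correlation of log2 levels (prior count 2). The members and lists were chosen with earlier results of these data known. Promoters come from RefSeq's table for GRCm38.p6.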

Additional observations from a re-analysis of the deposited data

How the results depend on the processing

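The number of members passing the test was 0 in every comparison as reported, and it differed in 4 of 119 counts under other settings. It was 1 (Nfkbia) for old against young cells without a filter, 1 (Nfkbia) for the same comparison with DESeq2, 1 (Nfkbia) for old against young WT cells with DESeq2, and 1 (Rela) for stimulated against young fresh cells with DESeq2; the cause was not tested. Leaving out each library in turn gave 0 to 0 members in every comparison. With RLE scaling no member's difference changed sign; of 1050 member values under alternatives 80 changed sign, 73 of them with a library left out, and none of these passed in either setting.

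Same-numbered libraries of different groups had correlations of their deviations from -0.013 to 0.012, which gave no sign that the numbers pair them. With 2 libraries a group the 2 deviations mirror each other, so these values cannot exclude pairing. With a replicate block 0 members passed, and 468 genes in all passed for stimulated against fresh cells (325 without it) and 752 for old against young (577). Over all genes, stimulated against fresh counts were 786 with DESeq2, 521 without a filter and 712 with voom; old against young counts were 1390, 971 and 254. KO against WT in stimulated cells had 129 passing genes in its own 4 libraries and 0 in the fit of all 12. In fresh cells this comparison had 3 (young) and 5 (old) passing genes, and 326 and 382 with DESeq2. For single genotypes, stimulated against fresh counts were 92 (WT) and 75 (KO), with 0 to 313 and 0 to 399 under other settings, and age counts 205 and 210, with 28 to 795 and 5 to 942. The interactions had 0 and 4, with up to 32 and 316. With single libraries left out, the pooled counts were 160 to 423 (stimulation) and 360 to 786 (age), and 24 to 296 for KO against WT in stimulated cells. For the members near 0 counts, 1 library can set a group's mean.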
